A study of Oryza sativa with 18 samples.

Results

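YIL25 is an introgression line of the indica rice cultivar Teqing whose calli brown less than those of Teqing, and its callus transcriptome was compared with that of the Teqing callus sequenced beside it, called Teqing1. All entries of the YIL25 table with a mean above 1 FPKM (fragments mapped to a gene, scaled by its length and by the size of the library) in either group were taken, which gave 8196 of the 65535 entries in the table. The table covers the first chromosomes only, up to the start of chromosome 3, so that the browning gene BOC1, which lies further along chromosome 3, was not analysed here. Positions on the IRGSP-1.0 genome were found for 5742 of the 8196 entries through the gene identifiers of the pCPL table of the same series.

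Each group had 3 libraries, labelled as replicates, from callus subcultured for 21 days. The YIL25 plants carry segments of Yuanjiang common wild rice (YJCWR, Oryza rufipogon) on the short arms of chromosomes 2, 3 and 5 in the Teqing background, and Teqing1 is the cultivar without them. No transgene is involved. YIL25 is 1 line, so that its segments, any other difference of that line from Teqing and the culture itself cannot be told apart. The other groups of the series are callus of 2 transgenic lines in Teqing, pCPL (complemented with BOC1) and pOE (overexpressing BOC1), each with Teqing libraries of its own (Teqing2 and Teqing3). They are used below only for values beside those of YIL25.

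Callus is a mass of dividing plant cells that forms on cut or cultured tissue, and in rice it is commonly grown from the scutellum of the seed. In culture, callus of many indica cultivars turns brown when phenolic compounds are oxidised, growth slows and cells die. Genes for sugar supply, cell wall loosening, protein breakdown and stress protection are of interest in such tissue. Callus has no agreed marker gene, and none of the described entries carried a word for photosynthesis or seed storage proteins, so that the tissue label could not be checked further.

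The 6 libraries separated cleanly by group. The correlation of log2(FPKM + 1) over the tested entries was between 0.980 and 0.984 within groups and between 0.850 and 0.857 across them. The reads behind the FPKM values were estimated from the steps between low values, and the estimates for the 6 libraries ran from 35436500 to 43380000 reads. In bulk callus, a change in the kinds of cells and a change within cells cannot be told apart.

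Of the tested entries, 689 (8.41%) were called higher in YIL25 and 1041 (12.7%) lower, at a fold change of 2 on the log2(FPKM + 1) scale and a limma adjusted p under 0.001. Together 21.1% of entries were called, and the YIL25 and Teqing1 libraries did not overlap in any called entry. Over all tested entries, called or not, the groups did not overlap in 76.4% (2559 higher and 3702 lower), so that the lack of overlap adds little to a call. At an adjusted p under 0.05 with no fold threshold, 29.5% of entries were higher and 43.2% lower, so that most of the measured transcriptome differed between the groups. At least 4-fold changes were found for 214 higher and 201 lower entries, and at least 16-fold changes for 15 and 13. The median log2 fold change over all tested entries was -0.13, and increases made up 39.8% of the calls. With median-of-ratios scaling the median moved to 0.04, and the calls were then 847 increases and 788 decreases (51.8% increases), so the excess of decreases depends on the scaling.

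**Figure D1:**
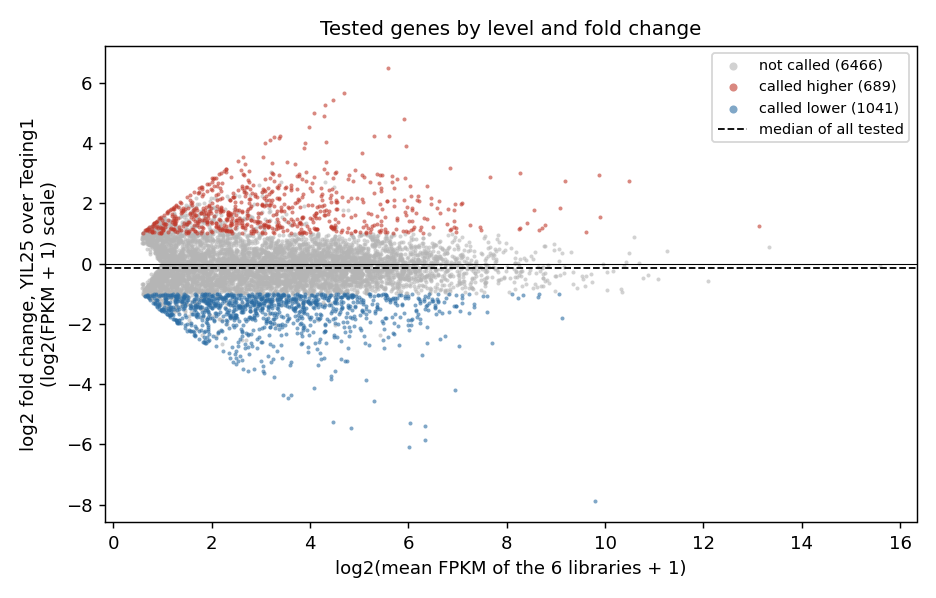
Log2 fold change of YIL25 over Teqing1 for each tested entry against its level, the log2 of the mean FPKM of the 6 libraries plus 1. Red points are the 689 called higher, blue points the 1041 called lower, and the dashed line is the median of -0.13.

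Calls were found at all levels of expression. Among entries with a mean of the 6 libraries up to 2 FPKM, 5.99% were higher and 8.66% lower, and between 5 and 20 FPKM the shares were 9.28% and 15.2%. Above 100 FPKM, 32 of 374 entries were higher and 32 lower. The log2(FPKM + 1) scale understates changes of entries near 1 FPKM.

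Descriptions of the genes were taken from the lists in which the study set out its genes that changed in all 3 lines. They cover 194 loci and 218 of the tested entries. The study picked these loci from the same libraries by the direction of change, so their counts are not independent evidence of direction, and genes outside the lists are given by locus only. Of the 132 tested entries in the list chosen for rising in YIL25, 80 were called higher and 6 lower, with a median log2 fold change of 1.18. Of the 86 in the list chosen for falling, 74 were called lower and 0 higher, with a median of -1.37. Counts of list members in the paragraphs that follow use an adjusted p under 0.05, against the shares of 29.5% and 43.2% over all entries.

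Enzymes of sugar and starch metabolism stood among the largest increases. Alpha-amylase breaks starch down to sugars, and both described genes for it rose in YIL25. LOC_Os02g52710 was at 2574, 2439 and 2426 FPKM in the YIL25 libraries and at 363, 380 and 375 FPKM in Teqing1, a ratio of 6.65 (log2 fold change of 2.73 with a standard error of 0.031, limma adjusted p = 5.69e-08). Its neighbour LOC_Os02g52700 was at 563, 531 and 545 FPKM against 64.3, 68.4 and 68.8 FPKM, a ratio of 8.14. LOC_Os02g52700 (chromosome 2, 32243175 to 32245008) and LOC_Os02g52710 (32248329 to 32250174) lie close together and belong to 1 family, so that reads may be divided between them.

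Sucrose-phosphate synthase makes the phosphorylated precursor of sucrose. Its gene LOC_Os01g69030 was at 15.7, 17.1 and 15.02 FPKM in YIL25 and at 1.25, 0.085 and 0.864 FPKM in Teqing1, where it was close to the detection limit in 1 library (log2 fold change of 3.35 with a standard error of 0.26, limma adjusted p = 3.75e-05). With a pseudocount of 0.1 the call of LOC_Os01g69030 was lost (log2 fold change 4.68, limma adjusted p = 0.0011). It was the largest increase among the described genes. In the other direction, the starch branching enzyme gene LOC_Os02g32660 fell from 73.0 ± 5.54 to 15.5 ± 0.457 FPKM (SD, n = 3 libraries here and for every level written in this way). In the list of sucrose and starch enzymes, 1 of 2 members thus rose and 1 fell.

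The level of the synthase gene LOC_Os01g69030 in Teqing callus was not steady over the series, with means of 0.734 FPKM in Teqing1, 7.38 FPKM in Teqing2 and 20.3 FPKM in Teqing3. The same held for other genes named here. Means in Teqing2 and Teqing3 were 140 and 1115 FPKM for the alpha-amylase gene LOC_Os02g52710 and 340 and 836 FPKM for LOC_Os02g49720. They were 71.9 and 297 FPKM for LOC_Os01g67980 and 410 and 154 FPKM for LOC_Os01g42860. LOC_Os01g50910 was alike in these groups (300 and 304 FPKM). The 3 tables were scaled apart from each other, so that these levels are set side by side and not tested.

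**Figure D2:**
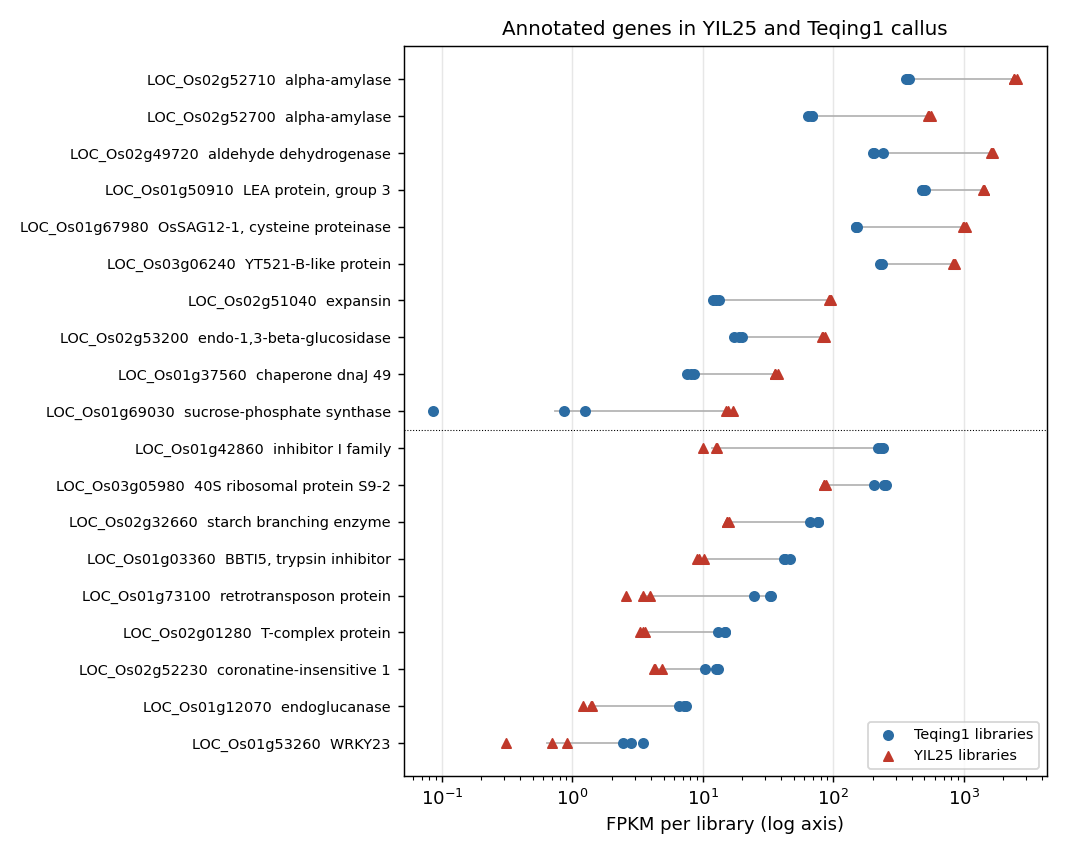
FPKM in each library, on a log axis, of 19 described genes in YIL25 (red triangles) and Teqing1 (blue circles), with a line between the group means. The 10 genes above the dotted line were higher and the 9 below it lower in YIL25, and the groups do not overlap in any of them, as in 76.4% of all tested entries.

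Genes that act on the cell wall moved in both directions. Expansins loosen the wall during cell growth, and the expansin gene LOC_Os02g51040 rose to 94.4, 96.0 and 92.5 FPKM from 12.7, 13.4 and 11.96 FPKM in Teqing1, a ratio of 7.42 (log2 fold change 2.80, limma adjusted p = 1.59e-07). LOC_Os02g53200, a glucan endo-1,3-beta-glucosidase gene, rose from 18.8 ± 1.45 to 83.6 ± 2.49 FPKM. The endoglucanase gene LOC_Os01g12070 fell from 7.05 ± 0.425 to 1.34 ± 0.116 FPKM. A mannan synthase gene of the cellulose synthase-like family, CSLA6 (LOC_Os02g51060), was covered by a pair of entries, of which one fell from 12.7 to 1.28 FPKM and the other was at 1.66 and 1.40 FPKM.

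In the list of proteinases and their inhibitors, 1 of 5 members rose and 4 fell. OsSAG12-1 (LOC_Os01g67980), a cysteine proteinase gene that is described as a negative regulator of senescence, reached 1010.4 ± 23.9 FPKM in YIL25 against 150 ± 2.06 FPKM in Teqing1, a ratio of 6.72. The members that fell include inhibitors and a protease. The proteinase inhibitor I family gene LOC_Os01g42860 (chromosome 1) was at 12.9, 10.01 and 12.6 FPKM in YIL25 and at 234, 221 and 239 FPKM in Teqing1, the largest decrease among the described genes (log2 fold change of -4.19 with a standard error of 0.092, limma adjusted p = 3.08e-07). BBTI5 (LOC_Os01g03360), a Bowman-Birk trypsin inhibitor gene, fell from 43.9 ± 2.67 to 9.50 ± 0.600 FPKM. The serine carboxypeptidase gene OsSCP9 (LOC_Os02g46260) fell from 9.93 ± 1.31 to 2.75 ± 0.205 FPKM.

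The inhibitor gene did not fall alone on its stretch of chromosome 1. LOC_Os01g42860 is the middle of 3 neighbouring tested entries that were all called lower between 24390676 and 24396820. The next gene, LOC_Os01g42870, a transferase gene, fell from 2.44 to 0.538 FPKM.

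Among stress and protection genes, LOC_Os02g49720, an aldehyde dehydrogenase gene, rose from 216 ± 21.8 to 1651 ± 31.2 FPKM, and such enzymes oxidise reactive aldehydes to acids. LOC_Os01g50910, which encodes a late embryogenesis abundant protein of group 3, rose from 491 ± 14.0 to 1420.2 ± 15.2 FPKM. Proteins of that kind protect cells during drying. The glutathione S-transferase gene LOC_Os01g55830 was at 3.85 ± 0.383 against 1.46 ± 0.316 FPKM, higher at an adjusted p of 5.22e-04 by limma with a log2 fold change of 0.99, just short of the fold threshold. It was the only gene described as such and came from the list chosen for rising. Genes of that family without a description were not looked for, so no direction is given for the family.

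Chaperone genes went both ways. LOC_Os01g37560, annotated as chaperone protein dnaJ 49, rose from 8.07 ± 0.476 to 36.4 FPKM. The T-complex chaperonin gene LOC_Os02g01280 fell from 14.3 ± 0.982 to 3.47 ± 0.180 FPKM, and the DnaJ gene LOC_Os01g33800 fell from 5.07 ± 0.718 to 1.40 ± 0.187 FPKM. All 3 described cytochrome P450 genes, members of a large family of oxidising enzymes, were lower, with log2 fold changes from -1.12 to -0.93. All 3 were under 4 FPKM and come from the list chosen for falling. The calls of LOC_Os01g52790 and LOC_Os02g47470 were each lost when any of 5 of the 6 libraries was left out, the exceptions being Teqing1 replicate 2 for LOC_Os01g52790 and Teqing1 replicate 1 for LOC_Os02g47470.

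Single hormone and regulatory genes were called in both directions. OsGH3.3 (LOC_Os01g12160), whose product joins auxin to amino acids, rose from 2.99 ± 0.216 to 9.57 ± 0.467 FPKM. LOC_Os02g52230, described as coronatine-insensitive 1, fell from 12.02 ± 1.48 to 4.44 ± 0.372 FPKM. That name is used for a jasmonate receptor, and whether this gene encodes one was not examined. A NAC-type transcription factor gene (LOC_Os01g66490, annotated no apical meristem) rose from 2.08 ± 0.326 to 5.59 ± 0.413 FPKM. OsWRKY23 (LOC_Os01g53260), a transcription factor gene that the study lists with positive regulators of senescence, was at 0.308, 0.697 and 0.910 FPKM in YIL25 and 2.81, 2.43 and 3.46 FPKM in Teqing1. The log2 fold change of LOC_Os01g53260 was -1.26 (standard error 0.18, limma adjusted p = 8.04e-04), and the call was lost when any 1 of the 6 libraries was left out (limma adjusted p of 0.00153 to 0.00405).

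Of the protein kinase genes, LOC_Os01g48330 and LOC_Os02g14530 rose and LOC_Os02g08530 fell, the last from 21.4 ± 1.44 to 8.16 ± 1.43 FPKM. The words for disease resistance matched 4 genes, all of them from the list chosen for rising. All were higher at an adjusted p under 0.05, with log2 fold changes between 0.58 and 0.95, below the fold threshold. They are the NB-ARC genes LOC_Os01g70080 (0.509 to 1.25 FPKM) and LOC_Os02g10900 (0.442 to 1.77 FPKM), a resistance protein gene, LOC_Os02g17304 (4.65 to 8.16 FPKM), and LOC_Os02g32690 (1.91 to 4.09 FPKM). The last is described as a pleiotropic drug resistance protein, a name used for membrane transporters, and is not a gene of the NB-ARC kind. NB-ARC proteins are immune receptors inside the cell.

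Of 8 tested entries for pentatricopeptide repeat proteins, which act on organelle RNA, 7 were higher and 1 lower, with a median log2 fold change of 0.68. The highest was LOC_Os02g57800, at 2.27, 2.27 and 2.25 FPKM in YIL25 against 0.319, 0.590 and 0.514 FPKM in Teqing1. The call of LOC_Os02g57800 was lost without any 1 YIL25 library (limma adjusted p of 0.0014 to 0.00173). The lower one was an entry of LOC_Os02g58620 (4.23 to 2.91 FPKM), whose other entry was higher (0.869 to 1.87 FPKM). All 8 belong to the list chosen for rising.

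Genes for RNA, ribosomes and mobile elements fill out the described set. LOC_Os03g06240, a YT521-B-like gene of the family that reads methylated RNA, rose from 233 ± 3.76 to 846 ± 10.4 FPKM and lay at the start of chromosome 3. Both described 40S ribosomal protein genes fell, S9-2 (LOC_Os03g05980) from 235 ± 27.3 to 85.7 ± 1.65 FPKM and S4 (LOC_Os01g25610) from 9.60 to 3.41 ± 0.0428 FPKM. Both belong to the list chosen for falling. The call of S4, LOC_Os01g25610, was lost without Teqing1 replicate 1 or without any 1 YIL25 library (limma adjusted p of 0.00109 to 0.00122). LOC_Os02g14900, of the family that makes callose, a wall glucan, was at 1.31 against 0.343 FPKM (log2 fold change 0.79, limma adjusted p = 0.00168). Words for very large proteins matched 5 entries, of which 2 were higher and 3 lower, with LOC_Os02g50799, a nuclear-pore anchor gene, rising from 2.75 ± 0.38 to 15.9 ± 0.965 FPKM. All 3 described transposon and retrotransposon entries fell, the largest change being that of LOC_Os01g73100, at 3.97, 2.56 and 3.501 FPKM against 32.5, 24.8 and 33.2 FPKM. These 3 entries belong to the list chosen for falling.

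The DNA replication and cell cycle words matched 5 entries, of which 3 were higher and 0 lower. All 5 belong to the list chosen for rising. LOC_Os03g02560, whose description is cyclin-like F-box and which may therefore not be a cyclin, rose from 4.13 ± 0.471 to 22.5 ± 0.750 FPKM. The catalytic subunit of DNA polymerase epsilon, POLE1 (LOC_Os02g30800), had one entry that rose from 0.134 to 1.32 FPKM, a call lost when any 1 of the 6 libraries was left out (limma adjusted p of 0.00189 to 0.00438), and another, the more abundant, at 7.95 ± 0.261 and 7.15 ± 0.171 FPKM, which did not pass (limma adjusted p = 0.074). RFC5 (LOC_Os02g53500), a subunit of the clamp loader, showed the same arrangement, with 2.91 to 6.80 FPKM for the minor entry and 20.9 and 19.5 FPKM for the major one.

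Such pairs were examined further, because a gene described once can be counted as more than one entry. Among loci with a position, 70 had exactly 2 tested entries, and the entry with the lower level in Teqing2, a group outside this comparison, was called minor. The minor entry was called higher in YIL25 at 37 loci and lower at 5. The major entry was called higher at 0 loci and lower at 19. Over all 8196 tested entries the same rule called 8.41% higher and 12.7% lower. Minor entries are low in Teqing callus by choice, and a mean above 1 FPKM in either group was needed. Some were therefore tested only because YIL25 was high, such as LOC_Os01g04950 (0.210 to 1.70 FPKM). Others entered through Teqing1 alone, such as LOC_Os02g10860 (1.18 to 0.0346 FPKM). The counts for minor entries are thus partly set by this choice. The median log2 fold change was 1.03 for minor and -0.66 for major entries, and the minor entry lay above the major one at 61 of the 70 loci. The entries of a pair had like median lengths (1042 bases for minor and 1065 for major).

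Opposite calls within 1 locus were found at 5 loci. At LOC_Os01g46700, described as a SET domain gene, the minor entry rose from 3.24 to 10.1 FPKM while the major one fell from 86.7 to 24.8 FPKM. At LOC_Os01g37825, a zinc peptidase gene, the values were 1.58 to 7.35 FPKM and 177 to 65.2 FPKM. At LOC_Os03g02150, described as an adapitin gene, they were 1.72 to 11.53 FPKM and 85.2 to 40.2 FPKM. The remaining loci with opposite calls were LOC_Os01g08750 (0.228 to 3.03 FPKM and 61.3 to 29.4 FPKM) and LOC_Os02g58410 (0.540 to 4.52 FPKM and 48.7 to 23.8 FPKM). LOC_Os02g04490, the histone acetyltransferase HAC1 gene, is not among the 5. Its minor entry rose from 1.24 to 9.64 FPKM, and its major one, at 31.6 and 31.1 FPKM, was not called. These loci were chosen after their values were seen.

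The other lines gave the following values for the same pairs, each against its own Teqing libraries. In pCPL the medians were 1.15 for minor and -0.49 for major entries over 67 loci, and in pOE they were -1.44 and 0.29. The ranking used Teqing2, which is the control group of pCPL. Since 23 of the 70 loci are in the lists of the study, a count of described genes that rose can include a locus whose main entry fell.

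Fold changes also moved with gene length in the table. The median log2 fold change of YIL25 over Teqing1 was -0.48 for genes up to 500 bases, -0.39 between 500 and 1000 bases, -0.06 between 2000 and 3000 bases and 0.04 above 4000 bases. The share called lower fell over the same classes from 26.3% to 3.91%, and the share called higher was 9.94% and 4.47% in the shortest and the longest class. In pCPL the median was -0.08 up to 500 bases, -0.15 between 500 and 1000 bases and 0.23 above 4000 bases. In pOE it was 0.11 up to 500 bases, 0.20 between 500 and 1000 bases and -0.29 above 4000 bases. When the trend of each library on length was removed, the 379 higher and 733 lower calls among genes with a length became 535 and 515 (51.0% increases). RNA integrity and read coverage along transcripts were not examined, and the part of gene length, RNA quality or coverage in the rises and falls of the described genes and of the paired entries was not tested.

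**Figure D3:**
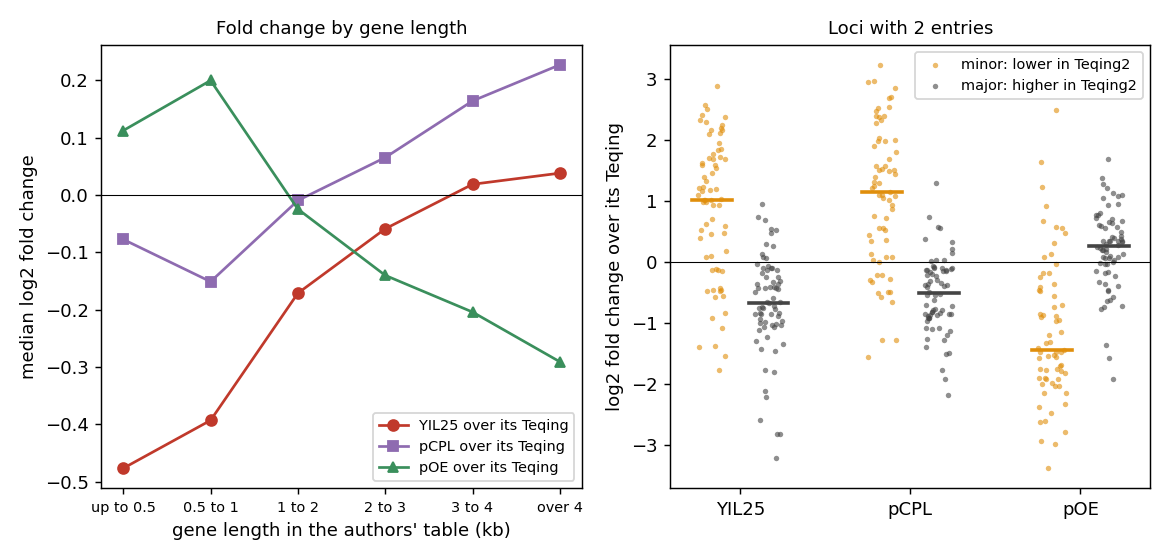
Left, the median log2 fold change over 6 classes of gene length for YIL25, pCPL and pOE, each over its own Teqing libraries. Right, log2 fold changes of the minor (orange) and major (grey) entry of loci with 2 tested entries, with a bar at each median: 1.03 and -0.66 in YIL25, and -1.44 and 0.29 in pOE.

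The position of the calls was described next, because YIL25 differs from Teqing by wild rice segments. Of tested genes with a position, 18.8% were called on chromosome 1, 20.4% on chromosome 2 and 17.3% at the start of chromosome 3. The first 8 Mb of chromosome 2, on the short arm, held 634 tested genes, of which 63 were higher and 101 lower (25.9%), against 18.6% of the 5108 genes elsewhere. The share of genes with at least 4-fold changes was 5.84% there and 3.05% elsewhere. A stretch outside the short arm, chromosome 2 from 21 to 24 Mb, reached like or larger shares, with 25.1% of 223 genes called (12 higher and 44 lower) and 9.42% at 4-fold or more. It was singled out after its values were seen and is counted within elsewhere. In pCPL, which has no wild rice segment on chromosome 2 by its description, 13.2% were called in the first 8 Mb and 13.7% elsewhere. In pOE these shares were 15.2% and 15.9%. From 21 to 24 Mb, 15.4% were called in pCPL and 17.8% in pOE. The share at 4-fold or more in that stretch was 1.25% in pCPL and 5.79% in pOE, against 1.99% and 2.77% elsewhere. The 8 Mb limit was set for this description and is not a mapped end of the wild rice segment. Genes are not replicates of a condition, so no test is given for these shares.

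Along the chromosomes, 84 windows of 1 Mb held at least 20 tested genes, and their share of calls ranged from 3.70% to 37.0% with a median of 18.3%. Of the first 8 windows of chromosome 2, 7 lay above that median. The start of chromosome 3, the other short arm covered by the table, held 434 tested genes with 29 higher and 46 lower. The window with the largest share was chromosome 2 from 4 to 5 Mb, with 11 of 92 genes higher and 23 lower. In pCPL 15.3% and in pOE 21.4% of the genes tested in that window were called.

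Within that window, the largest change was that of OS02G0184300, an entry with no locus number and no description, at 73.4, 74.6 and 74.1 FPKM in YIL25 and 3.31, 3.21 and 2.52 FPKM in Teqing1. LOC_Os02g08230 rose from 8.96 ± 0.879 to 63.2 ± 0.872 FPKM. LOC_Os02g09050 fell from 95.7 ± 6.86 to 13.9 ± 1.09 FPKM, and LOC_Os02g08100 from 34.0 ± 1.62 to 3.005 ± 0.254 FPKM. LOC_Os02g09670 fell from 10.04 ± 0.445 FPKM to 0.195 ± 0.0753 FPKM and LOC_Os02g09200 from 5.53 ± 0.518 to 0.104 ± 0.122 FPKM. The protein kinase gene LOC_Os02g08530, described above, lies in the same window. Some of these genes also changed in the transgenic lines. The log2 fold change of OS02G0184300 was 2.34 in pCPL and -3.47 in pOE. In the same order it was -0.31 and 2.31 for LOC_Os02g08230, -1.19 and 0.28 for LOC_Os02g08100, and -1.22 and 1.55 for LOC_Os02g08530. The values for LOC_Os02g09050, LOC_Os02g09200 and LOC_Os02g09670 ran from -0.10 to 0.37 in pCPL and from -0.75 to 0.64 in pOE.

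**Figure D4:**
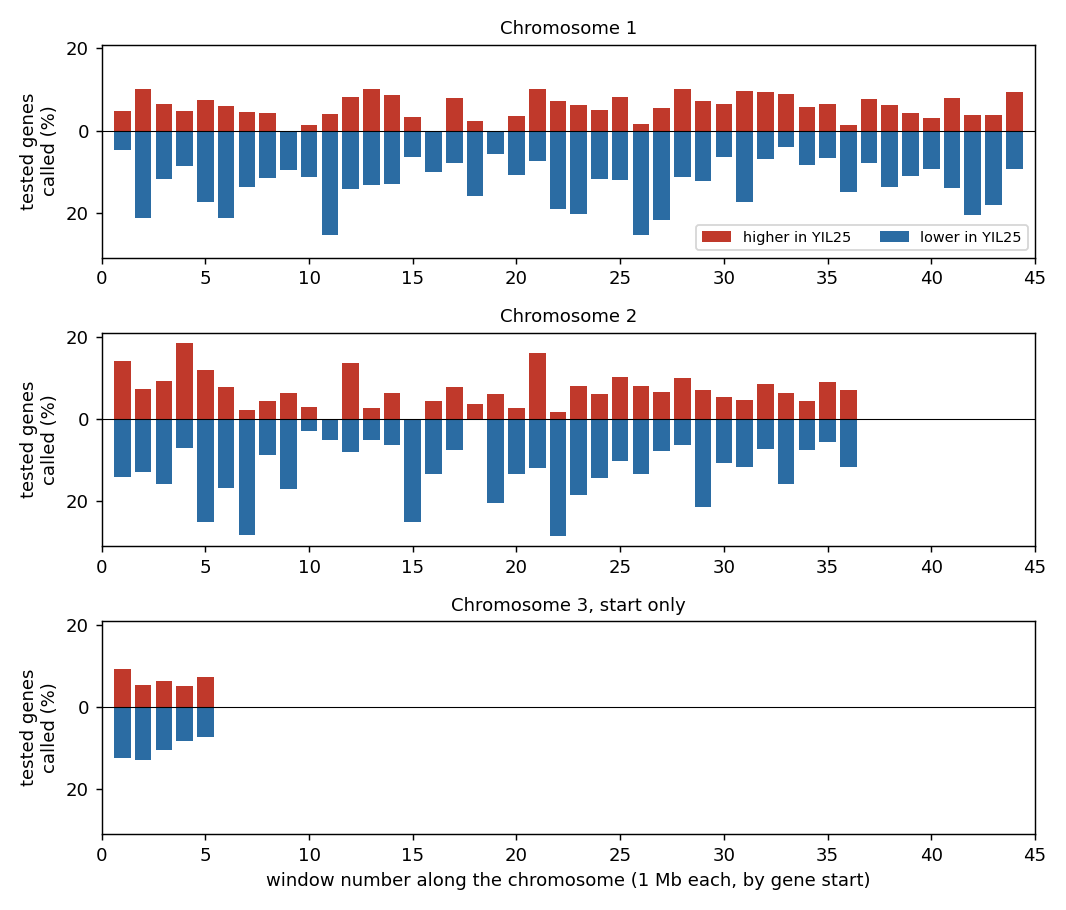
Percent of tested genes called higher (red, upward) and lower (blue, downward) in YIL25 in successive 1 Mb windows, numbered along each chromosome, the third of which is covered at its start only. The window with the most calls is window 5 of chromosome 2, where 37.0% of 92 genes were called.

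Neighbouring genes were in places called in the same direction. Runs of at least 3 consecutive tested genes with the same call numbered 6 for higher and 18 for lower genes. Of the 6 runs of higher genes, 4 started in the first 8 Mb of chromosome 2, and of the 18 runs of lower genes, 2 did. That region held 634 of the 5742 tested genes with a position. Those 4 runs include genes at or near 0 in Teqing1, such as LOC_Os02g02660 and LOC_Os02g06170, which were tested only because YIL25 was high. Such genes are counted again below as present in YIL25, so the runs are not a separate result. The longest run of higher genes had 6 members over 61.0 kb of chromosome 2 (426505 to 487548) and ended with LOC_Os02g01880.

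The longest run of all had 8 lower genes over 321 kb of chromosome 2 (21598138 to 21918679), outside the short arm. It began with LOC_Os02g35950, an RNA recognition motif gene, which fell from 134 ± 6.73 to 50.8 ± 0.490 FPKM. Within it, LOC_Os02g36110 fell from 38.9 ± 1.62 to 1.98 ± 0.254 FPKM, LOC_Os02g36210 from 14.49 ± 0.597 to 0.241 ± 0.0397 FPKM and LOC_Os02g36070 from 13.5 ± 0.800 to 0.521 ± 0.0511 FPKM. The median log2 fold change of the 8 genes was -3.18. Changes of these genes were not limited to YIL25. In pOE against Teqing3, LOC_Os02g36110 was at 210 against 33.6 FPKM and LOC_Os02g36210 at 137 against 19.6 FPKM. LOC_Os02g36070 was at 47.6 against 5.49 FPKM and LOC_Os02g35950 at 117 against 53.6 FPKM. In pCPL the log2 fold changes of the same genes ran from -1.05 to 0.52. Of the 12 largest decreases among genes with a position, 7 lay between 21 and 24 Mb of chromosome 2, among them LOC_Os02g38750, at 2.02, 1.55 and 1.62 FPKM in YIL25 against 165, 161 and 147 FPKM in Teqing1. That stretch held 223 of the 5742 tested genes with a position. In the window from 21 to 22 Mb, 1 of 63 genes was higher and 18 were lower.

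Further runs of lower genes lay on chromosome 1. At LOC_Os01g72120 to LOC_Os01g72150, 4 neighbours within 7.38 kb fell together, with LOC_Os01g72130 going from 45.2 ± 2.71 to 8.74 ± 0.119 FPKM and LOC_Os01g72150 from 30.3 ± 1.92 to 4.13 ± 0.451 FPKM. Genes that lie so close may share reads or be copies of each other, and the counting by the authors could divide reads between them.

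Some genes were present in 1 group only, which was defined as all 3 libraries under 0.1 FPKM in one group and above 1 FPKM in the other. By this rule 63 entries were present in YIL25 alone and 62 in Teqing1 alone. Of these, 15 and 15 had a position. Of the 15 present in YIL25, 8 lay in the first 8 Mb of chromosome 2, 4 on chromosome 1 and the rest further along chromosome 2. The first 8 Mb held 634 of the 5742 tested genes with a position.

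LOC_Os02g01880 (chromosome 2, 487231 to 487548) was the highest of them, at 32.0, 29.4 and 33.6 FPKM in YIL25 and 0.083, 0 and 0 FPKM in Teqing1, which amounts to about 1 read in all. Its neighbour OS02G0108302 was at 4.05, 4.69 and 3.85 FPKM against 0 in all 3 Teqing1 libraries. LOC_Os02g06170 (3080552 to 3082828) was at 10.04, 10.3 and 8.45 FPKM against 0, which is at least 126-fold higher when set against the level that 3 reads would give in 1 Teqing1 library. LOC_Os02g06790 (3428550 to 3431067) was at 7.26, 7.40 and 6.57 FPKM against 0, at least 87.9-fold higher by the same measure. LOC_Os02g04730 was at 7.70 ± 0.296 FPKM in YIL25 and between 0.031 and 0.083 FPKM in Teqing1.

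These genes were also at or near 0 in the other groups of the series. Of the 15, 14 were under 0.5 FPKM in each of the 12 libraries of Teqing2, pCPL, Teqing3 and pOE, and 7 were under 0.1 FPKM in each. LOC_Os02g01880, OS02G0108302 and LOC_Os02g06790 were at 0 FPKM in all 12.

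The 15 genes present in Teqing1 alone were above 0.1 FPKM in all 12 other libraries. In 3 of them every one of these libraries was at 1 FPKM or more. LOC_Os02g04690 (chromosome 2, 2110965 to 2118966) was at 2.72, 2.95 and 2.99 FPKM in Teqing1 and 0 in the 3 YIL25 libraries, at least 94.4-fold lower by the 3-read measure, and its mean was 3.28, 1.84, 2.66 and 1.45 FPKM in Teqing2, pCPL, Teqing3 and pOE. LOC_Os02g36030, within the run of 8 lower genes, was at 3.67, 3.59 and 3.77 FPKM in Teqing1 and 0 in YIL25, and at 39.0 FPKM in pOE. The multicopper oxidase gene LOC_Os01g03630, of the family that includes laccases, was at 1.78 ± 0.171 FPKM in Teqing1 and 0.0345 ± 0.0483 FPKM in YIL25. The other gene matched by the laccase words, LOC_Os01g17470 with a plastocyanin-like domain, was at 3.30 FPKM in YIL25 against 1.05 FPKM, a call lost when any 1 library was left out. Of the 15 genes present in Teqing1 alone, 5 lay in the first 8 Mb of chromosome 2, which held 634 of the 5742 tested genes with a position.

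**Figure D5:**
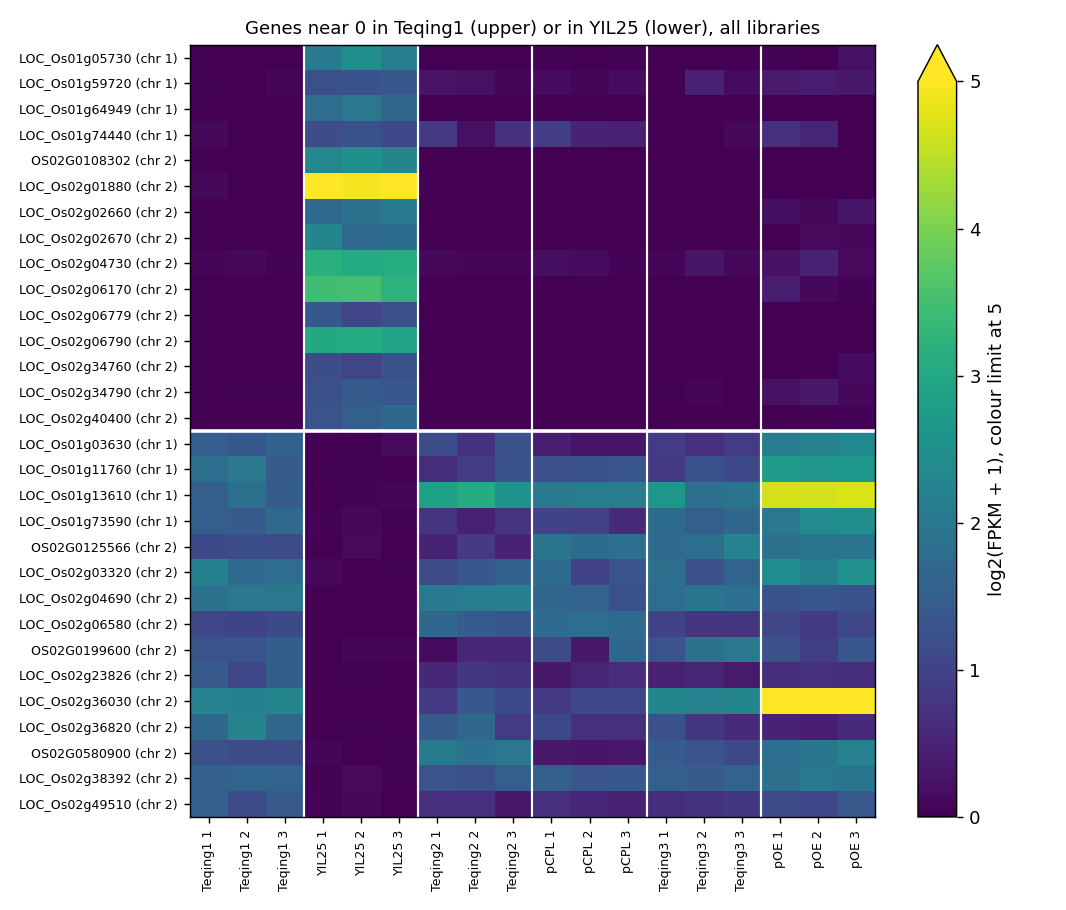
Log2(FPKM + 1) in all 18 libraries of the series, with the colour scale ending at 5, for the 15 positioned genes near 0 in Teqing1 (above the white line) and the 15 near 0 in YIL25 (below it). The upper genes show signal in the 3 YIL25 libraries and stay under 1 FPKM in all others, and the lower genes show signal in every group except YIL25.

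In a wild rice segment, reads that differ from the reference genome can align less often or to another copy, and a gene can be absent. The alignments were not used here, so that a change in transcript level, a change in sequence and the presence or absence of a gene cannot be told apart for these genes.

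Beyond the described genes, the largest increases included LOC_Os02g42310 on chromosome 2, at 115, 114 and 114 FPKM in YIL25 against 2.78, 3.44 and 3.35 FPKM in Teqing1, and LOC_Os01g25510 on chromosome 1, which rose from 22.4 to 207 FPKM. Of the 12 largest increases with a position, 5 lay in the first 8 Mb of chromosome 2, which held 634 of the 5742 tested genes with a position. The largest decreases included LOC_Os02g33700, from 54.5 ± 3.93 to 0.281 ± 0.178 FPKM. Its neighbour LOC_Os02g33710, described as a decarboxylase gene, had a minor entry that rose from 11.1 to 88.0 FPKM and a major one that was higher by 0.47 on the log2 scale (446 to 619 FPKM). LOC_Os01g10400 was the most abundant called gene and went from 5266 ± 201 to 12605 ± 318 FPKM. Among the most abundant lower genes, LOC_Os01g05650 fell from 872 ± 19.5 to 250.1 ± 6.15 FPKM.

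Entries of other kinds in the table behaved differently from the genes with chromosome numbers. Of the 1419 tested entries with an EPlOSAG identifier, 173 were higher (12.2%) and 81 lower (5.71%), with a median log2 fold change of 0.53. Of the 895 entries whose identifiers mark them as outside the annotation, 117 were higher (13.1%) and 185 lower (20.7%), with a median of -0.40. Numbered genes of chromosomes 1 and 2 had medians of -0.17 and -0.18. The EPlOSAG entries and those outside the annotation have no position or description in the files used here, and among all entries 9 of the 12 largest increases and 9 of the 12 largest decreases were of such kinds.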

How the data were processed

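Total RNA of callus was extracted with TRIzol, and paired-end libraries were sequenced on an Illumina HiSeq machine. The authors mapped the reads to IRGSP-1.0 (MSU7) with TopHat2 and deposited FPKM per gene and library in 1 table per comparison, normalized separately. The submitters' processing notes also name CASAVA 1.8, bcl2fastq and Cufflinks. Strand and library kit are not given in the sources used here, so that overlapping or antisense genes cannot be told apart. The deposited table also holds the authors' own log2 fold changes and p-values, which were not used.

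YIL25 was compared with Teqing1 in limma 3.58.1 (R 4.3.3), as a linear model with trended empirical Bayes moderation on log2(FPKM + 1), over entries whose mean exceeded 1 FPKM in YIL25 or Teqing1. P-values were adjusted by Benjamini-Hochberg over all 8196 entries. Calls were made where the fold change reached 2 and the adjusted p was below 0.001. For gene lists, an adjusted p below 0.05 sufficed. The fit was tested on simulated data. The replicates are labelled as biological, with no record of separate cultures, so p-values measure the spread between these samples. FPKM hold no read counts. Library sizes were estimated from the steps of low values, of which 93.6% to 94.7% in the lowest 15% fell within 0.05 of a whole read, and limits from 3 reads cover counting error only.

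Positions came from the pCPL table by gene identifier, and descriptions from the study's gene lists by locus. Named genes were the 12 largest changes in each direction with at least 5 FPKM and groups that did not overlap, the 8 most abundant called genes in each direction, the 5 highest genes near 0 in each group, up to 4 members of each list, the 6 largest changes of the window with most calls and the genes the study names, 94 in all. This rule had been written for all entries but was applied only to those with a position, and the others were counted but not named. CSLA6, LOC_Os01g42870, LOC_Os02g35950, the runs and the pairs of entries were chosen after their values were seen. Members and lists were chosen with earlier results of these data known. Alternatives were other pseudocounts, filters, scalings and thresholds, a replicate block and leaving out each library. Voom on recovered reads and removal of a loess trend on gene length were added after seeing the data. Lists with no described member in the table were phenylpropanoid, class III peroxidase, ROS scavenging, respiratory burst oxidase, abscisic acid, core histone, aquaporin, AP2/ERF, cytokinin, ethylene, salicylic acid, nitrogen, iron and phytoalexin.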

Additional observations from a re-analysis of the deposited data

How the results depend on the processing

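The counts of 689 higher and 1041 lower genes stayed within 1.5 times under a pseudocount of 0.1 (720 and 1114), no filter (595 and 912), a filter at 5 FPKM (537 and 792) and median-of-ratios scaling (847 and 788). Without the fold threshold and at an adjusted p of 0.05, they rose to 2416 and 3541. Leaving out 1 library gave 514 to 600 higher and 835 to 878 lower genes. Voom on recovered reads, chosen after seeing the data, gave 542 and 1044 where 379 and 733 of the same genes were called on log2(FPKM + 1), and it kept all 379 and 733. With no filter, the shares of genes called were 11.7% on chromosome 1, 13.6% on chromosome 2, 16.6% in the first 8 Mb of chromosome 2 and 12.02% elsewhere, since more genes were tested. On an adjusted p of 0.05 alone these were 74.9%, 78.4%, 82.0% and 75.9%, and 77.2% at the start of chromosome 3. Members of lists that were higher numbered 32, and 20 under the rule used for calls. Lower members numbered 23, and 20 under the rule used for calls. The described genes were picked by direction of change, so these counts give no direction for the lists. Among the 94 named genes no called gene changed direction under any of these settings, and 8 lost their call with median-of-ratios scaling and 7 with the length trend removed, most of them abundant lower genes near the fold threshold such as LOC_Os02g56014 (log2 fold change -0.82 and -0.54). The protein kinase gene LOC_Os02g08530 lost its call with the length trend removed (-0.84).

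No shared effect of replicate number was seen between the 2 groups, as the deviations of same-numbered libraries had correlations of -0.034 to -0.021. Whether same-numbered samples were cultured together is not recorded in the labels. With a replicate block 493 genes were higher and 775 lower, and 13 named genes lost their call. Changes under 2-fold could not be called at any level. Near 1 FPKM the log2(FPKM + 1) scale also put larger changes below the fold threshold. LOC_Os01g01130, for example, was at 1.38 FPKM in YIL25 and 0.665 FPKM in Teqing1, a ratio of 2.07. Its log2 fold change was 0.52.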
